A study of Rattus norvegicus with 9 samples.

Results

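The genes described here encode integrin subunits and laminin chains, measured by RNA sequencing of whole rat femurs 7 days after surgery. They were chosen by symbol: all genes whose name starts with Itga or Itgb, or is Lama, Lamb or Lamc with a number, without the platelet subunit gene Itga2b, and with the gene of the highest mean count kept where a symbol occurred more than once. The rule gave 40 of the 31125 genes in the count table. Of these, 25 encode integrin subunits and 11 encode laminin chains. The remaining 4 match the naming rule but are no subunits: Itgb1bp1 and Itgb1bp2 encode proteins that bind the β1 cytoplasmic tail, Itgb3bp encodes a centromere protein, and Itgbl1 encodes an integrin β-like protein.

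The study compared 3 groups of male rats, with 3 libraries in each. GMTT femurs had an injury of the distal femoral growth plate and were treated with the GMTT hydrogel, whose parts in the series title are GelMA, a light-cured gelatin, TPGS, a water-soluble form of vitamin E, and tea polyphenols. GPI femurs had the same injury without the hydrogel. Sham femurs had sham surgery. All were collected at day 7, and the labels call the femurs intact. The sources used here give no strain, age or genotype. None of these groups received a hydrogel without the active parts, so the gel and its contents cannot be told apart. The labels do not say whether tissue was pooled, and p-values therefore measure the spread between these libraries.

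Integrins are cell-surface receptors made of 1 α and 1 β subunit, and the pair decides what the cell binds: β2 pairs serve leukocytes, β3 pairs serve platelets and osteoclasts, and β1 pairs bind collagens, fibronectin or laminins in most tissues. Laminins are secreted proteins made of 1 α, 1 β and 1 γ chain, and they form the sheet of basement membrane around muscle fibres, vessels, nerves and epithelia. In muscle the α7β1 integrin and the dystroglycan complex both hold the fibre to laminin with the α2 chain, while vessels carry laminins with α4 and α5 chains.

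The promoters of Itgam, Lama2 and Itgb1bp2 are shown because these genes moved far in opposite directions between the groups: Itgam encodes the αM subunit of leukocytes, Lama2 the laminin chain of muscle, and Itgb1bp2 melusin, a muscle protein that binds the β1 tail. Each sequence is the 160 bases that end just before the annotated start of the gene, from RefSeq on the GRCr8 assembly, which is not the build of the counts. Capitals mark a purine box bound by PU.1-type factors (GAGGAA, or TTCCTC on the other strand) in Itgam, and the myogenic E-box CAGCTG in the others.
Itgam, chr1:192089432-192089591, plus strand: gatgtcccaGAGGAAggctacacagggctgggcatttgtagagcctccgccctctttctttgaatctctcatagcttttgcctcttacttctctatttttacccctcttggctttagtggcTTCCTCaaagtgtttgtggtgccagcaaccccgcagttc
Lama2, chr1:19491986-19492145, plus strand: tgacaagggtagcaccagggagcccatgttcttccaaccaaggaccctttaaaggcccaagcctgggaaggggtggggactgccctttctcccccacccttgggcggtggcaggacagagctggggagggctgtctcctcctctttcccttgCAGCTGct
Itgb1bp2, chrX:70612361-70612520, plus strand: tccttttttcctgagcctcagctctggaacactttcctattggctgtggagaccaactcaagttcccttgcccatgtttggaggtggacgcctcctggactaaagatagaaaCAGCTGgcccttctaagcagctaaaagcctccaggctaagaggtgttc

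RefSeq promoters were matched by symbol for 31 of the 40 genes, and the 250 bases before each start were searched on both strands. The purine box stood in 12 of the 31, against 23.3% of all 33469 promoters of that length. The E-box CAGCTG stood in 4 of the 31 (Itga4, Itgb1bp2, Lama2 and Lama3), against 12.0% of all promoters. A RUNX site (TGTGGT) stood in 5 of the 31, against 14.5%. The CC and GG ends of the CArG box of muscle genes, with any bases between, stood in 28 of the 31, against 65.1%. This loose pattern does not by itself identify a CArG box. Overlaps between motifs were allowed. Of the 23 promoters whose genes were higher in GPI than in Sham, 11 held the purine box, as did 1 of the 6 whose genes were lower. A match is a description of letters, not evidence of binding.

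Libraries held 15927429 to 19715997 counts. Normalised CPM (counts scaled to a common library size with TMM) are given for each gene, with libraries 1, 2 and 3 of a group in that order, and FPKM, which corrects for gene length, are used where genes are compared with each other. The GPI libraries stood apart in scale, with TMM factors of 1.28 to 1.30 in GMTT, 0.600 to 0.604 in GPI and 1.28 to 1.29 in Sham. The integrin and laminin genes took 0.267% to 0.278% of all counts in GMTT, 0.171% to 0.173% in GPI and 0.198% to 0.201% in Sham. Markers of bone were low in the GPI libraries: 6 osteoblast and osteocyte genes took 0.0610% to 0.0619% of counts in GMTT, 0.00984% to 0.0104% in GPI and 0.0840% to 0.0895% in Sham. Markers of chondrocytes, the cells of the growth plate, were low in all groups: 6 genes took 0.00521% to 0.00602% in GMTT, 0.00344% to 0.00358% in GPI and 0.00456% to 0.00509% in Sham. These are shares of raw counts. On the TMM scale, 4 of these 6 were called higher and 2 lower in GPI than in Sham (median log2 fold change 0.97). In GMTT against GPI 2 were higher and 3 lower (median -0.36), and in GMTT against Sham 2 were higher and 1 lower (median -0.10). In whole tissue, fewer cells of a type and less RNA per cell cannot be told apart.

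Of the 40 genes, 39 passed the low-count filter. Lama1, the α1 chain of embryonic and kidney basement membranes, did not: it had 4, 2 and 6 counts in GMTT, 1, 1 and 0 in GPI, and 0, 5 and 4 in Sham. With edgeR's quasi-likelihood test over all genes and Benjamini-Hochberg adjustment, 28 of the 39 were higher in GPI than in Sham, 10 were lower and 1 (Itgb5) was not called, where 88.2% of all 15936 genes tested were called, 40.1% as higher and 48.1% as lower. Their median log2 fold change was 1.56, against -0.19 for all genes, and they ran from -6.12 to 7.40. In GMTT against GPI, 11 were higher, 26 lower and 2 (Itga5 and Itga9) not called, where 85.9% of all genes were called, 45.7% as higher and 40.2% as lower. The median was -0.81, against 0.12 for all genes. In GMTT against Sham, 28 were higher, 2 lower (Itgax and Itgb3bp) and 9 not called (among them Itga2, Itga3, Itga4, Itga9, Itga10, Itgad, Itgae and Itgb1bp1), where 57.8% of all genes were called, 29.5% as higher and 28.3% as lower. The median there was 0.57, against -0.00 for all genes. GPI against Sham and GMTT against GPI share the GPI libraries, and GMTT against Sham shares the Sham or GMTT libraries with each of them.

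The direction of moderate changes with GPI depended on scaling. With library sizes alone in place of TMM, the median of all genes was -1.28 in GPI against Sham, and 21 of the 39 genes were higher and 18 lower. Over all genes tested, the same fit called 3521 as higher and 11210 as lower, where TMM gave 6387 and 7662. In GMTT against GPI it called 21 of the 39 higher and 16 lower, and over all genes 11503 as higher and 3016 as lower, where TMM gave 7285 and 6400. Called directions reversed for 7 genes in GPI against Sham (Itga5, Itga6, Itga9, Itga10, Itga11, Itgav and Itgb1bp1). In GMTT against GPI the direction reversed for 12, namely those 7 with Itgb1, Itgb8, Lama3, Lama4 and Lamc3. In GMTT against Sham the scaling changed no called direction among them.

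**Figure D1:**
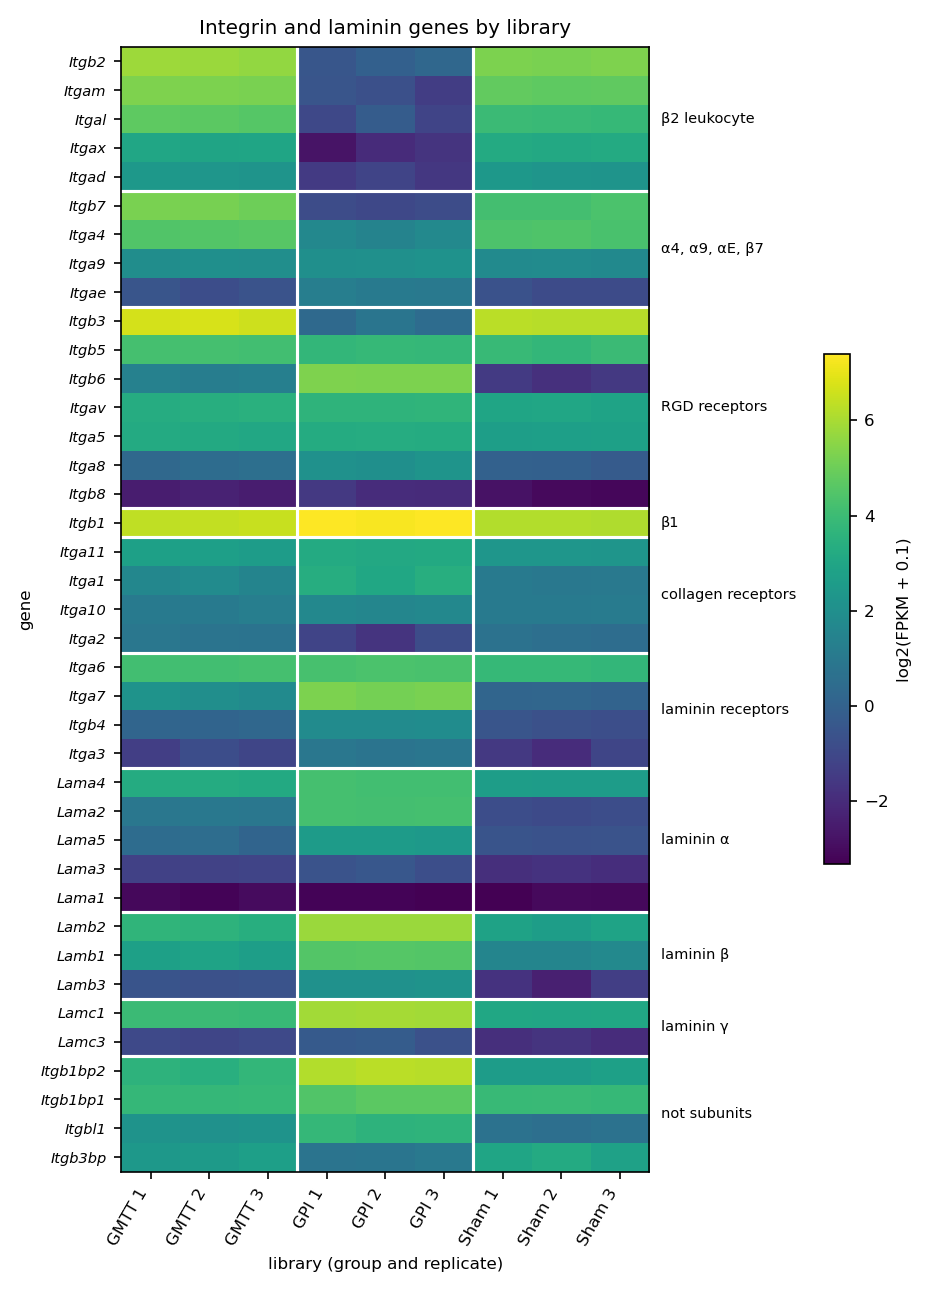
Level of the integrin, laminin and related genes (rows, grouped by role) in each of the 9 libraries (columns), coloured by log2(FPKM + 0.1). Leukocyte β2 subunits, Itgb3 and Itgb7 were low in the 3 GPI libraries, and the laminin chains, Itga7 and Itgb6 were high there.

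The leukocyte integrins of the β2 family had almost no reads in GPI and were abundant in GMTT and Sham. This family has 4 α subunits, encoded by Itgal (LFA-1), Itgam (Mac-1 or complement receptor 3), Itgax and Itgad, which share the β2 subunit encoded by Itgb2. The 4 α genes lie on chromosome 1 of mRatBN7.2 between positions 181918183 and 182788161, all on the plus strand. Itgam (ENSRNOG00000019728) had normalised CPM of 173, 168 and 165 in GMTT, 2.62, 2.27 and 1.25 in GPI, and 124, 118 and 122 in Sham. The 3 groups did not overlap, and the GPI libraries held 31, 27 and 13 counts. The log2 fold change of Itgam was -5.86 ± 0.10 (SE; adjusted p = 3.68e-31, edgeR) in GPI against Sham, which is 58.1-fold lower, 6.34 ± 0.10 (adjusted p = 3.68e-32) in GMTT against GPI, and 0.48 ± 0.05 (adjusted p = 3.67e-09) in GMTT against Sham. Itgb2 had 219, 214 and 201 normalised CPM in GMTT, 2.45, 3.45 and 4.24 in GPI, and 155, 151 and 161 in Sham. For Itgb2 the log2 fold changes in the same order were -5.54 ± 0.09, 5.98 ± 0.09 and 0.44 ± 0.05. The β2 subunit and its most abundant partner in GMTT and Sham thus changed by similar amounts in each contrast.

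The other β2 partners were likewise low in GPI, but differed between GMTT and Sham. Itgal was higher in GMTT than in Sham by 0.71 ± 0.06, at 122, 117 and 110.0 normalised CPM in GMTT and 74.3, 71.4 and 68.3 in Sham. Itgax, a subunit of dendritic cells and macrophages, was lower in GMTT than in Sham by a log2 fold change of -0.26 ± 0.06 (edgeR's quasi-likelihood test, Benjamini-Hochberg adjusted p = 0.000844), at 40.3, 38.5 and 39.4 in GMTT and 48.1, 45.7 and 48.2 in Sham. It was the only integrin subunit called lower in that contrast, and the call was lost with log2(FPKM + 0.1) and limma. Itgad, found on macrophages, was at 18.1 ± 0.894 in GMTT and 18.3 ± 0.913 in Sham (SD, n = 3 each) and was not called between them. Itgam, Itgax and Itgad are neighbours with similar sequences, and the counting of reads shared between them is not given in the sources used here.

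Markers of leukocytes moved with these genes. Of 10 neutrophil genes, 9 were tested and 9 were lower in GPI than in Sham, with a median log2 fold change of -10.07, and together the 10 took 1.14% to 1.19% of counts in GMTT, 0.000509% to 0.000619% in GPI and 0.948% to 1.02% in Sham. Of 10 monocyte and macrophage genes, 9 were tested and 9 were lower in GPI than in Sham, with a median of -2.67 and a share of 0.587% to 0.614% in GMTT, 0.00776% to 0.00840% in GPI and 0.563% to 0.601% in Sham. Marco was at 0 in every library. In GMTT against Sham, 6 of the 9 neutrophil genes were higher and 5 of the 9 monocyte genes were higher and 2 lower, with medians of 0.40 and 0.19. The part of these cells in the integrin result was not tested.

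The β7 and α4 subunits, which form the homing receptor of lymphocytes and share partners with other leukocyte integrins, were low in GPI, while αE and α9 were not. Itgb7 had normalised CPM of 101, 97.7 and 87.6 in GMTT, 1.27, 1.09 and 1.25 in GPI, and 50.6, 50.3 and 57.0 in Sham. The 3 groups did not overlap, and Itgb7 had the largest difference between GMTT and Sham among the leukocyte subunits, at 0.86 ± 0.06 (edgeR's quasi-likelihood test, Benjamini-Hochberg adjusted p = 7.1e-14), beside -5.44 ± 0.13 in GPI against Sham. Itga4, which also pairs with β1, had 82.9, 86.1 and 92.4 in GMTT, 11.7, 10.3 and 11.8 in GPI, and 81.0, 83.5 and 76.4 in Sham. It was lower in GPI than in Sham by -2.84 ± 0.08 and not called in GMTT against Sham (0.12 ± 0.05, adjusted p = 0.0661, edgeR), although 6 alternative settings called Itga4 higher, from 0.13 to 0.15 (adjusted p from 0.0175 to 0.0472). Itga9, a subunit of muscle, epithelia and neutrophils, stayed between 18.3 and 23.3 in the 9 libraries. It was called higher in GPI than in Sham (0.24 ± 0.08, adjusted p = 0.00512, edgeR), but lower with library sizes alone (-0.85). In GMTT against Sham it was called higher in 1 setting, median-of-ratios scaling (0.18). Itgae, the partner of β7 on intraepithelial T cells, was at 2.94, 2.33 and 2.72 in GMTT, 10.9, 9.58 and 9.25 in GPI, and 2.69, 2.21 and 2.16 in Sham, so it was higher in GPI by 2.08 ± 0.15 where its partner Itgb7 was lower. The Itgae gene model overlaps 5 other named genes with up to 6894 counts in a library, and whether its reads are its own cannot be told apart from the table.

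Lymphocyte markers were low in GPI with Itgb7 and Itga4, and in GMTT against Sham the B cell genes went the other way from Itgb7. All 6 B cell genes were lower in GPI than in Sham and all 6 were lower in GMTT than in Sham, with medians of -8.64 and -0.75. They took 0.0440% to 0.0456% of counts in GMTT, 5.78e-05% to 9.64e-05% in GPI (Vpreb1 at 0) and 0.0712% to 0.0761% in Sham. Of 6 T cell genes, 4 were tested and 4 were lower in GPI than in Sham (median -3.88), and 2 were higher and 1 lower in GMTT than in Sham (median 0.45). The T cell genes took 0.00279% to 0.00287% in GMTT, 4.07e-05% to 8.67e-05% in GPI and 0.00239% to 0.00274% in Sham.

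**Figure D2:**
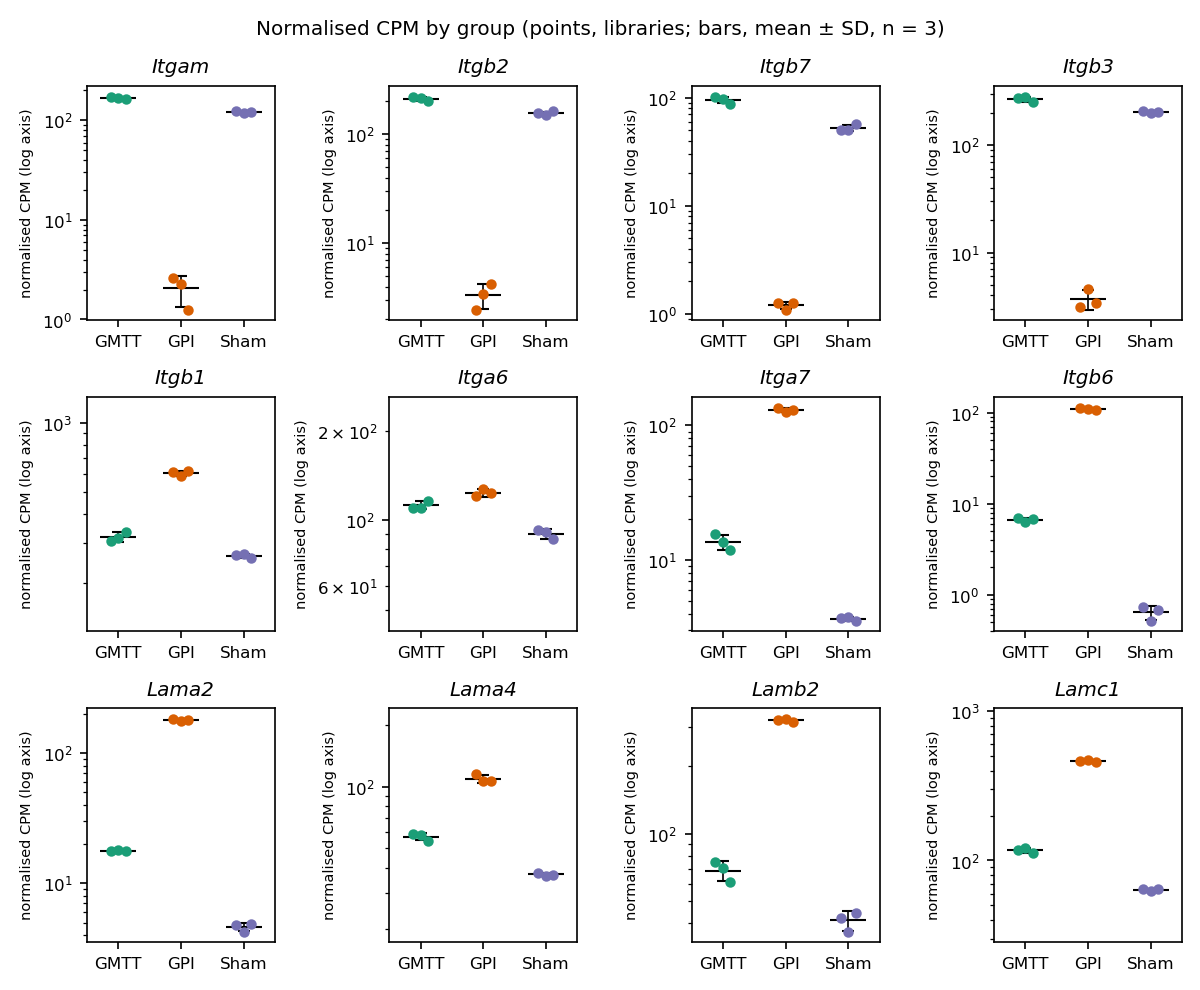
Normalised CPM on a log axis of the genes the comparisons turn on, with 1 point per library and a bar at the mean with the SD of each group (GMTT, GPI, Sham; n = 3). Itgb6 ran from 107 to 113 in GPI, against 0.520 to 0.734 in Sham, and Itgam from 1.25 to 2.62 in GPI, against 118 to 124 in Sham.

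Among the subunits of receptors for the RGD motif of fibronectin and vitronectin, Itgb3 and Itgb6 changed in opposite directions. Itgb3 (ENSRNOG00000048449, chromosome 10 of mRatBN7.2, 89509989 to 89564679, plus strand) encodes the β3 subunit of the platelet fibrinogen receptor and of αvβ3 on osteoclasts. It had 274, 279 and 252 normalised CPM in GMTT, 3.13, 4.54 and 3.37 in GPI, and 207, 201 and 206 in Sham. No groups overlapped. Its log2 fold change was -5.79 ± 0.09 (adjusted p = 5.55e-33, edgeR) in GPI against Sham, 6.18 ± 0.09 (adjusted p = 1.61e-33) in GMTT against GPI, and 0.39 ± 0.05 (adjusted p = 6.05e-08) in GMTT against Sham. Megakaryocyte markers were low in GPI too: 6 of 7 were tested, 6 were lower than in Sham (median -7.76), and the 7 took 0.0736% to 0.0781% of counts in GMTT, 0.000391% to 0.000404% in GPI and 0.0765% to 0.0810% in Sham, with Gp1bb at 0 in every library. Of 6 osteoclast genes, 5 were lower in GPI than in Sham (median -4.64), with shares of 0.0658% to 0.0695% in GMTT, 0.00255% to 0.00264% in GPI (Ocstamp at 0) and 0.0761% to 0.0797% in Sham. In GMTT against Sham both lists were mixed, each with 2 genes higher, 3 lower and 1 not called. Their medians were -0.10 and -0.26, while Itgb3 was higher.

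Itgb6 encodes β6, an epithelial subunit whose αvβ6 receptor activates latent TGF-β, and it had the largest fold change of the 39 genes. Its normalised CPM were 6.91, 6.24 and 6.71 in GMTT, 113, 109 and 107 in GPI, and 0.734, 0.520 and 0.690 in Sham, where the libraries held 15, 12 and 15 counts. The groups stood far apart, and GMTT lay between GPI and Sham. Itgb6 was higher in GPI than in Sham by 7.40 ± 0.11 on the log2 scale (adjusted p = 2e-33, edgeR), which is 169-fold, lower in GMTT than in GPI by -4.05 ± 0.07 (adjusted p = 1.16e-30), and higher in GMTT than in Sham by 3.35 ± 0.16 (adjusted p = 9.66e-18). Keratinocyte markers were few in all groups: 3 of 4 were in the table, Krt5 was at 0 in every library, and the 3 took 0.000199% to 0.000236% of counts in GMTT, 0.000239% to 0.000352% in GPI and 0.000134% to 0.000206% in Sham. Of the 2 tested, 1 was higher in GPI than in Sham. All 10 skeletal muscle marker genes tested moved in the directions of Itgb6, with median log2 fold changes of 6.67 in GPI against Sham, -3.34 in GMTT against GPI and 3.21 in GMTT against Sham. The part of either cell type in the Itgb6 result was not tested.

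The other RGD receptor subunits changed less. Itgav, the αv partner of β3, β5, β6 and β8, had 72.2, 76.9 and 83.1 normalised CPM in GMTT, 92.5, 91.1 and 93.3 in GPI, and 58.8, 60.5 and 55.7 in Sham. Itgb5, which pairs with αv in many cell types, had 52.4, 54.1 and 50.1 in GMTT, 38.7, 41.8 and 39.4 in GPI, and 43.0, 39.8 and 45.7 in Sham. GPI and Sham overlapped for Itgb5, which was not called between them (-0.10 ± 0.07, adjusted p = 0.159, edgeR) but was called (-0.16, adjusted p = 0.0347) without Sham library 2, and with library sizes alone (-1.19, adjusted p = 1.65e-17). Itga5, of the fibronectin receptor α5β1, was higher in GPI than in Sham by 0.53 ± 0.06, and with library sizes alone it and Itgav were lower, at -0.56 and -0.43. Itga5 was not called in GMTT against GPI (-0.12 ± 0.06), but 5 settings other than library sizes called it lower, from -0.13 to -0.16. Itga8, found on smooth muscle and mesenchyme, was higher in GPI than in Sham by 2.31 ± 0.11. Itgb8, whose αvβ8 receptor activates TGF-β, was higher by 2.75 ± 0.45, but on 18, 12 and 10 counts in GPI and 6, 3 and 2 in Sham. All 7 RGD receptor genes were higher in GMTT than in Sham, from 0.29 for Itgb5 to 3.35 for Itgb6. Over all genes tested, 29.5% were called higher in that contrast. The Itgb8 call in that contrast was lost with log2(FPKM + 1), and its call in GMTT against GPI was lost without GPI library 1 (-0.80, adjusted p = 0.0809, edgeR).

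Itgb1, the β subunit shared by collagen, laminin and fibronectin receptors, was higher in GPI than in the other groups, at 305, 316 and 335 normalised CPM in GMTT, 609, 586 and 616 in GPI, and 266, 268 and 258 in Sham. The groups did not overlap, and the log2 fold changes were 1.19 ± 0.05 in GPI against Sham, -0.92 ± 0.04 in GMTT against GPI and 0.27 ± 0.04 in GMTT against Sham (adjusted p = 7.99e-22, 9.22e-19 and 5.34e-06, edgeR). With library sizes alone the second was 0.18. The α subunits of its collagen receptors split. Itga1, of smooth muscle, fibroblasts and capillaries, had 12.0, 13.7 and 10.8 in GMTT, 40.6, 32.5 and 41.0 in GPI, and 8.37, 7.49 and 7.77 in Sham, and was 2.27 ± 0.10 higher in GPI than in Sham. The Itga1 gene contains Pelo on the same strand, with 122 to 504 counts. Itga2, of platelets and epithelia, went the other way, at 6.57, 6.11 and 5.97 in GMTT, 1.35, 0.756 and 1.73 in GPI, and 5.87, 5.33 and 5.06 in Sham, a log2 fold change of -2.09 ± 0.21 in GPI against Sham.

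Collagen receptors of skeletal tissue moved little. Itga11, of fibroblasts and osteogenic stroma, had 34.3, 33.0 and 30.4 normalised CPM in GMTT, 46.9, 44.5 and 45.8 in GPI, and 24.8, 24.8 and 24.6 in Sham. It was higher in GPI than in Sham by 0.89 ± 0.07, and higher in GMTT than in Sham by 0.40 ± 0.06 (edgeR's quasi-likelihood test, Benjamini-Hochberg adjusted p = 3.9e-06). Itga10, the collagen receptor of chondrocytes, was at 11.0 ± 0.808 in GMTT, 15.6 ± 0.490 in GPI and 10.7 ± 0.392 in Sham (normalised CPM, SD, n = 3 each), and GMTT and Sham were not called different (0.04 ± 0.09). With library sizes alone, Itga10 and Itga11 were lower in GPI than in Sham, at -0.55 and -0.21, and higher in GMTT than in GPI, at 0.60 and 0.61.

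The laminin receptors led by α7 were higher in GPI. Itga7 encodes α7, the laminin receptor of skeletal and heart muscle, and had 15.5, 13.6 and 11.9 normalised CPM in GMTT, 135, 126 and 130.3 in GPI, and 3.72, 3.77 and 3.54 in Sham. The 3 groups did not overlap. Its log2 fold changes were 5.15 ± 0.09 (35.5-fold) in GPI against Sham, -3.26 ± 0.07 in GMTT against GPI and 1.89 ± 0.11 in GMTT against Sham (adjusted p = 1.13e-31, 1.62e-28 and 4.54e-16, edgeR). Itga7 overlaps Cd63, a gene on the same strand with 1218 to 4267 counts. Itga6, the α6 subunit of epithelia, endothelium and platelets, had 110.3, 110.2 and 116 in GMTT, 120.3, 127 and 123 in GPI, and 92.5, 91.4 and 86.2 in Sham, so it changed far less than Itga7 (0.46 ± 0.05 in GPI against Sham). With library sizes alone Itga6 was lower in GPI than in Sham (-0.63) and higher in GMTT than in GPI (0.96), and its call in the second contrast (-0.14, adjusted p = 0.0122, edgeR) was lost without the low-count filter (-0.11) and without GPI library 2, GMTT library 1 or GMTT library 2 (-0.12 each). Itgb4, the hemidesmosome subunit that pairs with α6, was higher by 2.68 ± 0.11 in GPI against Sham and 0.91 ± 0.12 in GMTT against Sham. The Itgb4 gene overlaps Galk1, on the opposite strand, with 32 to 507 counts. Itga3, of epithelia and kidney, was higher by 2.71 ± 0.20 in GPI against Sham, and at 1.54, 2.42 and 1.89 in GMTT it overlapped Sham, at 1.27, 0.823 and 1.93, and was not called (0.54 ± 0.24, adjusted p = 0.0511, edgeR). Itga3 was called higher in GMTT than in Sham in 8 alternative settings, from 0.55 to 0.90, the highest without Sham library 3 (adjusted p = 0.00333, edgeR).

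Every laminin chain that could be tested was higher in GPI than in Sham and lower in GMTT than in GPI. Over all genes tested, 40.1% were called higher in GPI than in Sham and 40.2% lower in GMTT than in GPI. The 10 chains had a median log2 fold change of 2.96 (1.56 to 5.29) in GPI against Sham and -2.11 (-3.34 to -0.76) in GMTT against GPI. In GMTT against Sham 9 of the 10 were higher, with a median of 0.97, where 29.5% of all genes were called higher. With library sizes alone all 10 were still higher in GPI than in Sham, but Lama3, Lama4 and Lamc3 reversed in GMTT against GPI, to 0.34, 0.16 and 0.34. Summed over the 11 chains on the authors' scale, FPKM was 47.5 ± 2.58 in GMTT, 187 ± 1.77 in GPI and 25.6 ± 1.02 in Sham (SD, n = 3 each), where the 25 integrin subunits summed to 458 ± 9.12 in GMTT, 339 ± 7.21 in GPI and 339.8 ± 2.19 in Sham. These sums depend on the authors' scale, whose constant was 1.29 to 1.30 times the library total in GMTT, 0.598 to 0.608 times in GPI and 1.31 to 1.32 times in Sham, so the close integrin sums of GPI and Sham do not hold per library total.

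Lama2 (ENSRNOG00000011134, chromosome 1 of mRatBN7.2, 17672536 to 18320530, plus strand) moved most among the chains. It encodes α2, the chain of muscle and nerve basement membranes. Lama2 had 17.7, 18.0 and 17.8 normalised CPM in GMTT, 185, 177 and 179.8 in GPI, and 4.75, 4.24 and 4.83 in Sham. Within each group the libraries lay close together, and the groups were far apart. The log2 fold change was 5.29 ± 0.07 (39.2-fold; adjusted p = 2.49e-34, edgeR) in GPI against Sham, -3.34 ± 0.06 (adjusted p = 4.87e-31) in GMTT against GPI and 1.95 ± 0.09 (3.87-fold; adjusted p = 4.63e-19) in GMTT against Sham. Lama4, the α4 chain of vessels, fat and nerve, had 58.3, 57.9 and 54.2 in GMTT, 115, 106 and 106 in GPI, and 37.7, 36.5 and 37.0 in Sham, and changed least of the 10 in GPI against Sham, by 1.56 ± 0.06. Lama5, of vessels and epithelia, was higher in GPI by 3.29 ± 0.09, and Lama3, of epithelia, by 1.66 ± 0.17.

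The β and γ chains shared by many laminins were also higher in GPI. Lamc1, the γ1 chain of most laminins, had 118, 120.4 and 113 normalised CPM in GMTT, 460.2, 474 and 458 in GPI, and 64.4, 62.6 and 64.1 in Sham. Lamb2, the β2 chain of muscle synapses, vessels and kidney, had 74.5, 70.2 and 61.1 in GMTT, 321, 326 and 315 in GPI, and 42.3, 36.6 and 44.5 in Sham. Lamb1, the widely used β1 chain, had 46.2, 50.3 and 44.0 in GMTT, 159, 166 and 158 in GPI, and 19.8, 19.9 and 22.7 in Sham. None of the 3 genes overlapped between groups, and their log2 fold changes in GPI against Sham were 2.87 ± 0.05, 2.96 ± 0.07 and 2.95 ± 0.06. Between GMTT and Sham they were 0.88 ± 0.05, 0.74 ± 0.07 and 1.17 ± 0.07. Lamb3, a chain of the epithelial laminin with α3, was low, and higher in GPI than in Sham by 4.42 ± 0.18. Lamc3, the γ3 chain, had 2.69, 2.46 and 2.68 in GMTT, 4.66, 5.04 and 3.47 in GPI, and 1.13, 1.39 and 1.06 in Sham.

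**Figure D3:**
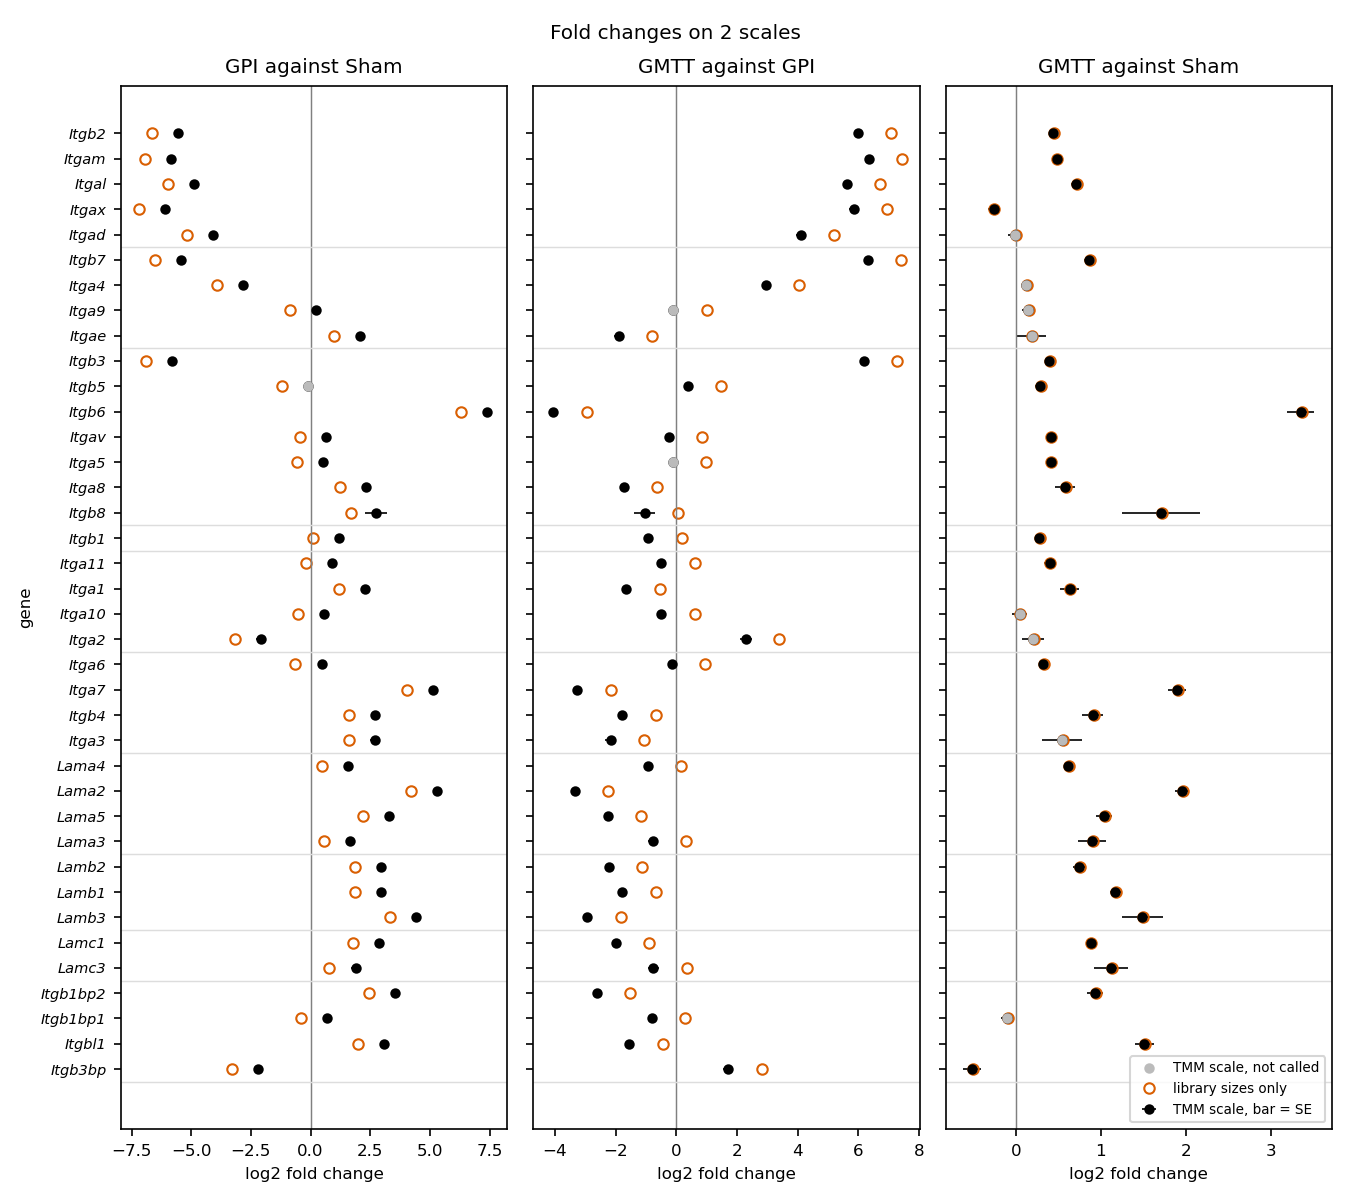
Log2 fold change of the tested integrin, laminin and related genes (rows, grouped by role) in GPI against Sham (left), GMTT against GPI (middle) and GMTT against Sham (right). Filled points are on the TMM scale with the standard error as a bar, black where called and grey where not, and open circles use library sizes only. On the TMM scale the laminin chains lie above 0 in GPI against Sham (1.56 to 5.29) and below 0 in GMTT against GPI (-3.34 to -0.76), and the β2 family has the opposite signs.

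On the TMM scale, markers of skeletal muscle and smooth muscle moved with Lama2, Itga7 and the other laminin chains in all 3 contrasts. Most endothelial markers did so too. Markers of connective tissue did so in the contrasts with Sham. All 10 skeletal muscle genes tested were higher in GPI than in Sham, lower in GMTT than in GPI and higher in GMTT than in Sham, with medians of 6.67, -3.34 and 3.21. They took 1.99% to 2.15% of all counts in GMTT, 9.48% to 10.0% in GPI and 0.204% to 0.222% in Sham. All 8 genes of fibroblasts, tendon and synovium were higher in GPI than in Sham (median 3.73) and in GMTT than in Sham (median 1.66), but in GMTT against GPI 2 were higher and 6 lower (median -1.30), with shares of 0.107% to 0.112% in GMTT, 0.0827% to 0.0853% in GPI and 0.0452% to 0.0480% in Sham. Of 6 endothelial genes, 5 were higher in GPI than in Sham (median 1.63), 5 lower in GMTT than in GPI (-1.47) and 5 higher in GMTT than in Sham (0.28). They took 0.0474% to 0.0515% in GMTT, 0.0458% to 0.0471% in GPI and 0.0366% to 0.0380% in Sham. Shares are of raw counts, without the TMM factors. For the endothelial genes and for those of fibroblasts, tendon and synovium, shares were higher in GMTT than in GPI, unlike most of the calls. All 3 smooth muscle genes were higher in GPI than in Sham (median 3.13), lower in GMTT than in GPI (-1.74) and higher in GMTT than in Sham (1.59). They took 0.0126% to 0.0136% in GMTT, 0.0195% to 0.0204% in GPI and 0.00500% to 0.00532% in Sham. Schwann cell genes, 4 in number, split evenly in GPI against Sham, at 0.00611% to 0.00655% in GMTT, 0.00437% to 0.00463% in GPI and 0.00663% to 0.00715% in Sham. Of the 8 erythroid genes all were lower in GPI than in Sham (median -9.08), at 4.08% to 4.49% in GMTT, 0.103% to 0.112% in GPI and 7.62% to 8.56% in Sham. The part of these cells in the laminin and integrin results was not tested.

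The make-up of the integrin and laminin mRNA was also described within each group, as shares of summed FPKM, which do not depend on scaling between libraries. Among β subunits, Itgb1 held 28.9% ± 1.98 in GMTT, 73.2% ± 0.758 in GPI and 31.9% ± 1.05 in Sham. Itgb3 held 34.0% ± 1.03 in GMTT, 0.626% ± 0.139 in GPI and 34.6% ± 0.327 in Sham. Itgb6 held 0.795% ± 0.0521 in GMTT, 17.6% ± 0.524 in GPI and 0.104% ± 0.0170 in Sham (SD, n = 3 each). In GMTT and Sham, Itgb3 and Itgb1 were thus the leading β subunits, followed by Itgb2 at 17.9% ± 0.446 in GMTT and 17.6% ± 0.372 in Sham, and in GPI they were Itgb1 and Itgb6. Itgb5 kept a like share, at 6.12% ± 0.102 in GMTT, 6.28% ± 0.356 in GPI and 6.70% ± 0.370 in Sham. Among the α subunits without Itga2b, Itgam led in GMTT (24.2% ± 0.428) and Sham (22.4% ± 0.619), and Itga7 led in GPI (31.5% ± 0.540), where Itgam held 0.401% ± 0.139. These integrin shares were chosen after values were seen and were not tested.

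**Figure D4:**
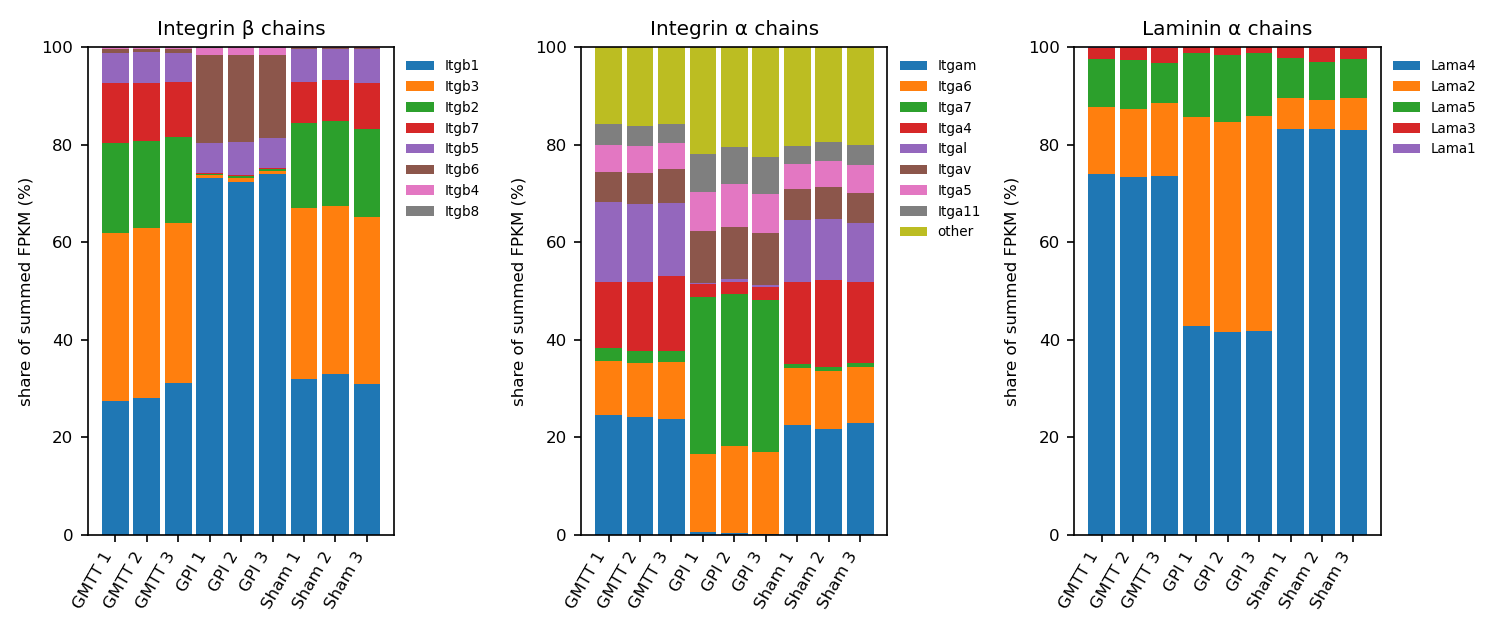
Share of summed FPKM in each library (columns) held by each β integrin subunit, each α integrin subunit without Itga2b, with the less abundant ones as other, and each laminin α chain. Itgb1 holds on average 73.2% of β subunits in GPI, against 31.9% in Sham, and Lama2 holds 43.3% of laminin α chains in GPI, against 6.40% in Sham.

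Among laminin α chains, Lama4 led in GMTT at 73.6% ± 0.305 and in Sham at 83.1% ± 0.164, while in GPI Lama2 (43.3% ± 0.587) and Lama4 (42.1% ± 0.694) were close to equal. Lama2 held 14.3% ± 0.577 in GMTT and 6.40% ± 0.365 in Sham. The share of Lama4 was 41.0 percentage points lower in GPI than in Sham, 31.5 higher in GMTT than in GPI and 9.52 lower in GMTT than in Sham, with no overlap in any contrast. Each gave p = 0.1 in a 2-sided exact permutation test, the smallest that this test can give with 3 against 3 libraries. Lamb2 held 61.4% ± 1.94 of β chains in GMTT, 66.5% ± 0.267 in GPI and 68.6% ± 1.33 in Sham, and Lamc1 held 96.9% to 98.0% of γ chains on average in every group.

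Ratios between partners, taken as log2 differences of FPKM within a library, describe how the members of a pair moved. For 15 ratios, GPI and Sham did not overlap in 12, GMTT and GPI in 12, and GMTT and Sham in 9. The exact test could not pass 0.05 for any of them, and the smallest Benjamini-Hochberg adjusted exact p over the 15 ratios was 0.125 in the contrasts with GPI and 0.167 in GMTT against Sham. Itgam over Itgb2 overlapped in all 3 contrasts, with differences of -0.39 in GPI against Sham, 0.43 in GMTT against GPI and 0.04 in GMTT against Sham, although both genes changed far. In GPI its log2 ratio ran from -1.90 to -0.04, on 13 to 31 counts of Itgam and 29 to 44 of Itgb2. With that spread (SD 0.94, against 0.04 in Sham), overlap with GPI cannot show that the ratio was kept. Itga7 over Itgb1 differed by 3.96, -2.34 and 1.62 in the same order, and Lama2 over Lamc1 by 2.43, -1.35 and 1.08, with no overlap. Itga4 over Itgb7 differed by 2.61, -3.35 and -0.74, again with no overlap between these libraries. In GPI Itgb7 held 15, 13 and 13 counts, and Itga4 also pairs with β1. Itgav over Itgb3 differed by 6.48 and -6.46 in the contrasts with GPI and by 0.02 in GMTT against Sham, where the libraries overlapped. Itgax over Itgb2 was 0.70 log2 units lower in GMTT than in Sham (a difference of -0.70), and Itgal over Itgb2 was 0.26 higher, both with no overlap.

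Levels per length, as FPKM, place these genes in order. In GMTT the highest mean FPKM were those of Itgb3 (101 ± 5.72), Itgb1 (85.9 ± 3.70), Itgb2 (53.4 ± 2.51), Itgam (38.7 ± 1.09) and Itgb7 (35.3 ± 2.68). In GPI they were those of Itgb1 (163 ± 4.99), Itgb1bp2 (73.9 ± 3.18), Lamc1 (60.6 ± 0.951), Lamb2 (54.5 ± 0.654), Itgb6 (39.2 ± 0.946) and Itga7 (36.9 ± 1.32). In Sham they were those of Itgb3 (75.6 ± 0.927), Itgb1 (69.7 ± 1.60), Itgb2 (38.5 ± 1.17), Itgam (27.2 ± 0.595), Itga4 (20.8 ± 1.01) and Itgb7 (19.1 ± 1.31) (SD, n = 3 each). The order is a description of means. Itgam and Itgb7 in GMTT, Itgb6 and Itga7 in GPI, and Itga4 and Itgb7 in Sham lay close to each other in it.

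The 4 genes that are no subunits did not move as 1 group. Itgb1bp2 (melusin), of skeletal and heart muscle, had 15.3, 13.6 and 17.7 normalised CPM in GMTT, 90.8, 98.8 and 96.1 in GPI, and 7.93, 7.71 and 8.78 in Sham, with no overlap and log2 fold changes of 3.55 ± 0.08, -2.62 ± 0.07 and 0.93 ± 0.09. Itgb3bp, the centromere protein, had 8.02, 8.88 and 10.2 in GMTT, 2.62, 2.69 and 2.99 in GPI, and 12.4, 14.9 and 11.2 in Sham, and it was lower in GPI than in Sham by -2.22 ± 0.16. It was also lower in GMTT than in Sham, by -0.51 ± 0.11. Itgb3bp held 31, 32 and 31 counts in GPI, and it overlaps Efcab7, a gene on the opposite strand with 31 to 153 counts. Itgbl1, found in cartilage and fibroblasts, was higher in GPI than in Sham by 3.07 ± 0.10 and in GMTT than in Sham by 1.51 ± 0.11. Itgb1bp1, which keeps β1 integrins inactive, was at 20.1 ± 0.457 in GMTT, 35.2 ± 2.61 in GPI and 21.6 ± 0.503 in Sham, and with library sizes alone its direction reversed in GPI against Sham (-0.39) and in GMTT against GPI (0.30).

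Other genes of the integrin and laminin pathways were followed in 4 lists, on the TMM scale only. Of 12 genes for laminin receptors that are no integrins and for the dystrophin complex that joins them to the cytoskeleton, 11 were higher and 1 (Dtnb) lower in GPI than in Sham, 1 was higher and 10 lower in GMTT than in GPI, and 11 were higher in GMTT than in Sham, with medians of 4.46, -3.14 and 1.36. Dmd (dystrophin) had log2 fold changes of 5.63, -3.57 and 2.06, the sarcoglycan gene Sgcb 4.84, -3.43 and 1.41, and Sspn (sarcospan) 5.13 in GPI against Sham and -3.12 in GMTT against GPI. Several genes of this list are muscle genes, as are those of the muscle markers. Of 15 basement membrane genes tested, 14 were higher and 1 (Fbln1) lower in GPI than in Sham, 1 was higher and 13 lower in GMTT than in GPI, and 13 were higher and 1 (Col4a3) lower in GMTT than in Sham, with medians of 2.41, -1.69 and 0.95. The collagen IV gene Col4a1, of the network that laminin is joined to, changed by 2.66, -1.69 and 0.97.

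Integrin activators and adaptors split in direction. Of 28 tested, 11 were higher and 16 lower in GPI than in Sham (median -1.04), 15 higher and 12 lower in GMTT than in GPI (median 1.08), and 15 higher and 7 lower in GMTT than in Sham (median 0.17). Tln2, the talin of muscle, had log2 fold changes of 5.30, -3.39 and 1.91, and Fermt2, the kindlin of adherent cells, 3.07, -2.38 and 0.69. Rasgrp2, which activates Rap1 in platelets and leukocytes, went the other way, at -4.79, 4.60 and -0.19. Fermt3, the kindlin of blood cells, was named after its values were seen, and it had -6.94, 6.93 and -0.01. Of 15 ligand genes tested, 7 were higher and 8 lower in GPI than in Sham (median -0.49), 10 higher and 5 lower in GMTT than in GPI (median 0.46), and 10 higher and 3 lower in GMTT than in Sham (median 0.55). Spp1 (osteopontin), a bone ligand of αvβ3, had -4.58, 3.74 and -0.83, and Vcam1, the ligand of α4β1, had -3.68, 3.63 and -0.06. On the TMM scale Fn1 (fibronectin) was higher in both injured groups than in Sham, with 0.96, 0.46 and 1.42. The direction of changes of this size with GPI can depend on scaling: Itga11, at 0.89 in GPI against Sham, was at -0.21 with library sizes alone. Values of Fn1 with library sizes alone are not given here.

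**Figure D5:**
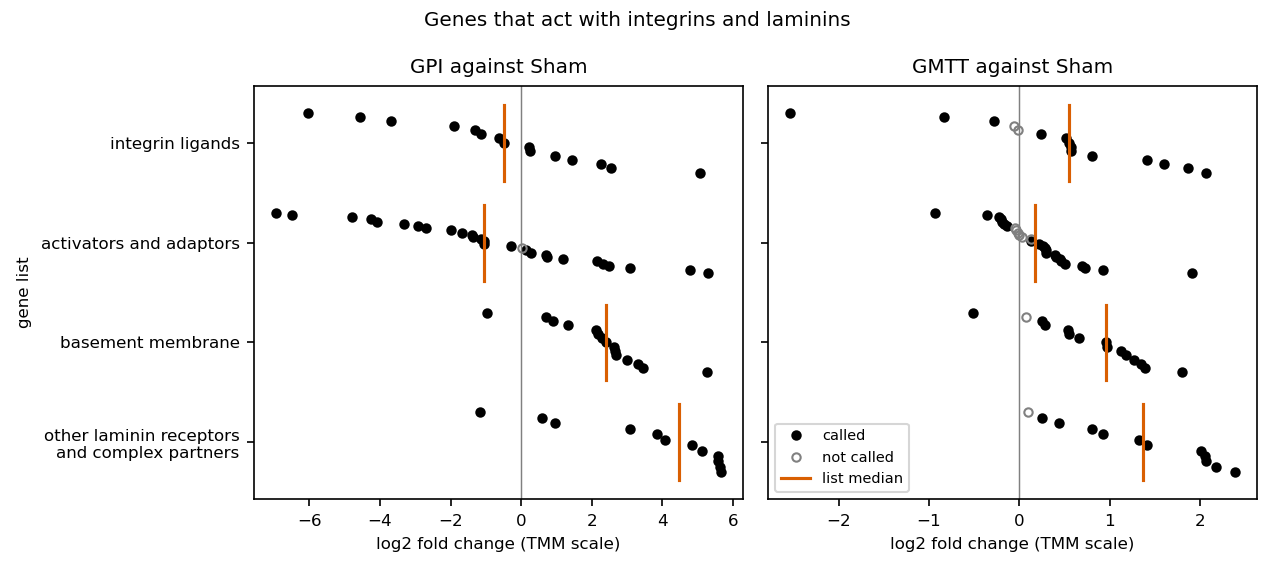
Log2 fold changes on the TMM scale of the genes in the 4 pathway lists (rows), in GPI against Sham (left) and in GMTT against Sham (right), with 1 point per gene, filled where called, and a line at each list's median. The non-integrin laminin receptors and their partners have a median of 4.46 in GPI against Sham and 1.36 in GMTT against Sham, and the activators and adaptors spread to both sides of 0.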

How the data were processed

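TRIzol RNA of 9 rat femurs, 3 in each of 3 groups, was poly(A)-selected, and the libraries keep strand and were read from both ends, per the labels' protocols. The authors deposited raw counts for each gene as whole numbers, and FPKM in another table. The submitters' processing notes name the build mRatBN7.2. No source used here names the aligner or counter, or says how strand and multiply matched reads were handled. Dividing each deposited count by gene length and by a single number for its library gives the deposited FPKM (largest relative deviation 5.11e-15), so FPKM carry the authors' scaling between libraries.

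The counts of all 9 libraries entered a single 3-group model in edgeR 4.0.16 (R 4.3.3; TMM, robust quasi-likelihood F test, 2-sided). The filter on low counts (minimum 10) kept 15936 genes, over which p-values were adjusted by Benjamini-Hochberg, with calls under 0.05. Depth was 15927429 to 19715997 counts per library. Replicates differed by more than counting noise (chi-square per degree of freedom 1.99 to 5.15). Ratios and shares were compared by exact permutation tests of FPKM values. The edgeR fit was tested on data simulated from the Sham profile, with few genes changed and as many raised as lowered. That setting holds no shift in composition like that of GPI, so it does not test the scaling. The 10 role lists, 15 marker lists and 4 pathway lists, like the 40 genes, were chosen with earlier results of these data known. Named in each library were Itgam, Itgb3, Lama2, the 2 genes of each role list with the highest mean FPKM and the 3 called genes with the largest changes in each direction of each contrast, to a total of 22. From each pathway list, the 3 genes with the smallest p in GPI against Sham and in GMTT against Sham could be named, and any exception to the direction of a list. Library values of other genes were given after they were seen. Alternatives were median-of-ratios and library-size scaling, TMM without marker genes, DESeq2 1.42.0, other filters, fits of 6 libraries, a replicate block, limma 3.58.1 on log2(FPKM + 1) and log2(FPKM + 0.1), and leaving out each library. Figures were drawn with matplotlib 3.10.9. A gene of the set is counted in the totals but not reported by name here, and it is not drawn.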

Additional observations from a re-analysis of the deposited data

How the results depend on the processing

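Leaving out each library in turn, the 39 tested integrin, laminin and related genes gave 28 higher and 10 to 11 lower in GPI against Sham, 11 higher and 25 to 27 lower in GMTT against GPI, and 28 to 30 higher and 2 lower in GMTT against Sham. Over all genes the counts were 6289 to 6641 higher and 7557 to 7740 lower, 7118 to 7405 higher and 6285 to 6576 lower, and 4325 to 4735 higher and 4011 to 4547 lower in the same order. With library sizes only, genes called were 3521 higher in GPI against Sham, and 11503 higher and 3016 lower in GMTT against GPI, and of the 39 there were 18 lower in the first contrast, and 21 higher and 16 lower in the second. The same scaling reversed Itga11 (-0.21), Itga6 (-0.63) and Itgb1bp1 (-0.39) in GPI against Sham, and Itga11 (0.61), Itga6 (0.96), Itgb1 (0.18), Itgb1bp1 (0.30), Lama4 (0.16) and Lamc3 (0.34) in GMTT against GPI. That scaling by its construction leaves out the TMM factors. On log2(FPKM + 0.1), 1 of the 39 was lower in GMTT against Sham. With that pseudocount the log2 difference of Itgax over Itgb2 in GPI against Sham was 0.019 in place of -0.77, and that of the Lamc1 share in GMTT against Sham was 0.70 percentage points, with the sign reversed in both. Values near the pseudocount enter both: Itgax had FPKM of 0.0496, 0.148 and 0.209 in GPI, and Lamc3 had mean FPKM of 0.399 in GMTT and 0.178 in Sham. The cause was not tested.

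Replicate numbers did not pair the libraries: deviations of same-numbered libraries correlated between -0.146 and 0.0614. With a replicate block, 6342 genes were higher and 7618 lower in GPI against Sham, and the calls of all 39 were the same in every contrast. Of 39 genes, 38 kept their call in GPI against Sham, 36 in GMTT against GPI and 34 in GMTT against Sham under all 18 settings that gave a value, other than library sizes. Itgb8, Lama3 and Lamc3 were among the genes with no value at a filter of at least 5 CPM in 3 libraries. Depth limits Lama1 and Itgb8, and the leukocyte genes in GPI, which rest on few counts.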
